A study of Mus musculus with 2 samples.

Results

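The DNase I hypersensitive sites of 10 mouse genes are described here, that is, the open chromatin in and around Auts2, Camta1, Maml3, Gse1, Zmynd8, Fgfr2, Pde4d, Asic2, Myo1d and B4galt5. These 10 of 21938 protein-coding genes were chosen by their number of peaks shared between the libraries, so every peak count below is a description of a selected set. For each gene, the window was the gene body in GENCODE M21 on the mm10 build plus 10 kb to each side. A peak of replicate 1 was called shared when it overlapped a peak of replicate 2 by at least 1 bp. A peak was kept when it lay more than 1 kb from every transcription start site (TSS) of other genes. The label of large genes held for 9 of the 10, which spanned over 100 kb, and not for B4galt5, which spans 50.74 kb. The label of peak-rich genes held less evenly. By shared peaks in the window before any removal, Fgfr2 with 55, Camta1 with 27, Auts2 and Pde4d with 20 each, Maml3 with 16, B4galt5 with 15, Asic2 with 13 and Gse1 with 10 ranked between 2 and 21 among all genes. Myo1d with 5 ranked 450 and Zmynd8 with 3 ranked 2181. The genes outside the set with the most shared peaks were Gm20388 with 117, Gm37240 with 15, Pcdh17 with 13, and Ctnna2, Fgf12, Trim7 and Upp2 with 12 each.

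The material was frontal cortex from female B6CASTF1/J mice, a B6 by CAST F1 hybrid, aged 36 days and given no treatment that the labels name. DNase-seq, which cuts nuclear DNA at accessible sites with DNase I and sequences the cut ends, was run on 1 group of 2 biological replicates. Their tissue sample records differ but the donor label is the same, so the spread between them may be technical, and no test between groups was possible. The peak list used held 29700 peaks in replicate 1 and 66512 in replicate 2, a ratio of 2.24, and the footprint lists held 112826 and 250543 footprints. Promoters of neuronal marker genes were open in both replicates for 4 of 6, those of oligodendrocyte markers for 2 of 3 and those of astrocyte markers for 3 of 4. Over all protein-coding genes the share was 50.8%, so these few markers do not tell the cell types present. The neuronal marker Slc17a7 and the astrocyte marker Aldh1l1 had no promoter peak in either replicate. None of the 3 inhibitory neuron, 3 microglia, 3 vascular and 4 other-organ marker promoters held a peak in both, and 1 other-organ promoter held a peak in replicate 2.

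Open chromatin at a gene marks its promoters and, away from them, candidate enhancers and insulators, which are often found in the long introns of genes that act in the brain. A footprint is a short stretch inside open chromatin where DNase I cuts less than its surroundings, as happens where a protein covers the DNA. Several of the 10 genes act on transcription or chromatin in neurons, others carry growth factor, cyclic AMP or ion signals, and the remaining ones encode a motor protein and a glycosyltransferase.

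The sequences below are the members' distal open sites, over 1 kb from any TSS and outside exons, that best show how the sites differ from each other; each is the highest-signal such peak of its gene. They are read from the plus strand of the RefSeq GRCm38.p6 genome, 5′ to 3′, and capitals mark bases in footprints that were called in both replicates. The Camta1, Asic2 and Zmynd8 sites are shown for a match to the CTCF motif inside a shared footprint. The Pde4d site is shown for a match to the CRE letters TGACGTCA outside the shared footprints. The Fgfr2 and Maml3 sites have shared footprints and no match to the 12-letter CTCF pattern searched. Looser forms of the CTCF motif were not searched, so these sites are not shown to lack one. The B4galt5 site comes from a run of peaks with low signal, and only the central 300 bases of its peak, chr2:167294941-167295280, are printed.
Camta1 intron, chr4:151141621-151141840: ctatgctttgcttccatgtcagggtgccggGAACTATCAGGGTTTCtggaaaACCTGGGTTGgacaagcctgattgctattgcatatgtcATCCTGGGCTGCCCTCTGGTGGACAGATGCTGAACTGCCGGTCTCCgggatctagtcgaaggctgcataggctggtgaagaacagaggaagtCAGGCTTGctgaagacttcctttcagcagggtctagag
Asic2 intron, chr11:81613348-81613490: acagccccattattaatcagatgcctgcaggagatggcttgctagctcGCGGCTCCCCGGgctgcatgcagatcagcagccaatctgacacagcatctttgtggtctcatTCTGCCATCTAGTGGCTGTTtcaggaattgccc
Zmynd8 3′ flank, chr2:165782444-165782620: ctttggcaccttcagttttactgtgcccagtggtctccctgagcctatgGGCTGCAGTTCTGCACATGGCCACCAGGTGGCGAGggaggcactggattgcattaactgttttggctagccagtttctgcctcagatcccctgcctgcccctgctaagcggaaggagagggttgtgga
Pde4d intron, chr13:109822401-109822620: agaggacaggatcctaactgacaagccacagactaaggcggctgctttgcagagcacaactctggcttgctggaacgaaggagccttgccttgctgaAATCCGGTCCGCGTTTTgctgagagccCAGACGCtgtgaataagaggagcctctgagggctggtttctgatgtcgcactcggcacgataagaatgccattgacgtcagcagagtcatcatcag
Fgfr2 intron, chr7:132551841-132552040: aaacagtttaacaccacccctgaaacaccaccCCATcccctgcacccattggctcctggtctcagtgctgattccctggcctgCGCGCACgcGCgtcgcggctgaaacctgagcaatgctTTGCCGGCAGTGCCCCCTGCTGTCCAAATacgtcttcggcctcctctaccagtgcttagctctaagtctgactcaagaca
Maml3 intron, chr3:52046961-52047220: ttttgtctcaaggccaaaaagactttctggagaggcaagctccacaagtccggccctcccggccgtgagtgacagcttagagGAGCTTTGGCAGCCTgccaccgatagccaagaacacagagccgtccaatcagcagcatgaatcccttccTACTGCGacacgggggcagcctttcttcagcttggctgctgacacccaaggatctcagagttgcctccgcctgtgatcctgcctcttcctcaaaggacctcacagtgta
B4galt5 3′ flank, chr2:167294961-167295260: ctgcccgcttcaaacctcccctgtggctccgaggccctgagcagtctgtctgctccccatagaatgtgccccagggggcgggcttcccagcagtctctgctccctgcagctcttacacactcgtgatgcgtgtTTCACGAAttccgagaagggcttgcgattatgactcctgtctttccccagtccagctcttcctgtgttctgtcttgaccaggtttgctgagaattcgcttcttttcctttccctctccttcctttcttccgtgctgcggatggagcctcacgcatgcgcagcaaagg
The CTCF match lies at bases 101 to 112 of the Camta1 site, 114 to 125 of the Asic2 site and 70 to 81 of the Zmynd8 site, counted from the 5′ end of the printed strand. In the Camta1 site, 80 of 220 bases lay in shared footprints, against 8 of the 300 printed bases of the B4galt5 site.

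In the windows of the 10 genes there were 205 peaks in replicate 1 and 445 in replicate 2. After removal of peaks near other genes' start sites, 162 and 382 were kept, a ratio of 2.36. All 10 genes had at least 1 kept shared peak and all 10 had a peak in each replicate within 500 bp of one of their own start sites; over all protein-coding genes these shares were 49.2% and 50.8%. The members were chosen on these counts, so nothing is read from the comparison. The kept shared peaks numbered 147. Some of these overlapped each other, and 142 remained after overlapping peaks within each list were merged.

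Among the regulators of transcription and chromatin, Camta1 held the most kept shared peaks. Camta1 encodes a calmodulin-binding transcription activator and lies on chr4:150917322-151861876 on the minus strand. It had 23 kept peaks in replicate 1 and 42 in replicate 2, of which 22 were shared, or 2.38, 4.35 and 2.28 per 100 kb of window. Some of the 22 overlapped each other, and 20 shared peaks, 2.07 per 100 kb, remained after overlapping peaks within each list were merged. Of its 5 clusters of start sites, 4 had a promoter peak in each replicate, more than at any other gene here except Pde4d, which had 6 of 15. Its 5′ promoter peak at chr4:151861841-151862620 had a depth-normalized signal of 3.86 and 8.33 in the 2 replicates, and the intronic site printed above had 4.81 and 7.77. Both lay in the highest 5% of peaks in each replicate, with ranks of 96.0 and 99.4% for the promoter and 98.8 and 99.0% for the intronic site.

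Auts2, whose product joins a Polycomb complex that activates transcription in neurons, lies on chr5:131437333-132543344 on the minus strand. It had 17 kept peaks in replicate 1 and 41 in replicate 2, with 16 shared, which is 1.51, 3.64 and 1.42 per 100 kb. Of the shared peaks, 10 lay in introns, 4 at its own promoters and 2 in the flank. At the annotated 5′ end itself, a shared peak with signals of 1.12 and 2.42 was removed for lying near a start site of another gene. A kept promoter peak 0.741 kb into the gene had 0.613 and 0.767, and one far inside the gene at chr5:131538406-131538600 had 1.23 and 1.87. Shared peaks were spaced widely, with a median gap of 61.7 kb.

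Maml3 encodes a Mastermind-like coactivator of Notch receptors and lies on chr3:51685907-52105076 on the minus strand. All its 16 peaks in replicate 1 were shared, and replicate 2 had 26, giving 3.64 and 5.92 per 100 kb. Of these, 11 lay in the first 20% of the gene, and 10 of 16 had a neighbour within 2 kb. The 16 peaks had only 10 distinct partners, where the partner is the replicate 2 peak with the most overlap. For 6 of them, near the 5′ end, the partner was 1 broad peak at chr3:52101861-52104200, whose signal was 1.69. Replicate 2 also held other peaks centred in that stretch, with signals of 1.53 to 1.63. When overlapping peaks within each list were merged, 13 shared peaks remained.

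Gse1, a protein of the LSD1 and CoREST histone demethylase complex, lies on chr8:120228456-120581390 on the plus strand. It had 9 kept peaks in replicate 1, all shared, and 37 in replicate 2, or 2.41 and 9.92 per 100 kb. The only start site cluster of 6 with a promoter peak in both replicates lay at 73.5% of the way through the gene. Its highest distal peak, at chr8:120382641-120383040, had signals of 2.33 and 5.48.

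Zmynd8 encodes a reader of acetylated histones and lies on chr2:165784152-165899016 on the minus strand. It had 3 kept peaks in replicate 1, all shared, and 21 in replicate 2, so its density went from 2.22 to 15.6 per 100 kb and the ratio of counts was 7.0, the highest of the 10. One of the 3 was a promoter peak at chr2:165884641-165884880, 12.4% into the gene, with signals of 6.01 and 7.88. These were at the 99.7% and 99.1% ranks of their lists, so this gene combined few peaks with the strongest single site of the set in replicate 1. The others lay downstream of the 3′ end, including the CTCF site printed above.

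Fgfr2 is a receptor tyrosine kinase for fibroblast growth factors, and its window depends on the gene model. GENCODE places it on chr7:130162451-133123350 on the minus strand, 2961 kb, because 1 of its 27 transcripts spans over 1 Mb. The window then holds 30 other protein-coding genes, and 26 of 55 shared peaks were removed for lying near other start sites. There were 29 kept peaks in replicate 1, all shared, and 77 in replicate 2, at 0.973 and 2.58 per 100 kb, the lowest shared density of the set. Only 3 of the 29 were nearest to a start site of Fgfr2 itself. With the RefSeq extent of 104.4 kb, 3 peaks of replicate 1 and 9 of replicate 2 remained, or 2.41 and 7.24 per 100 kb. The intronic site printed above, which had signals of 3.44 and 7.08, lies 571 kb from a start site of Fgfr2 and outside the RefSeq extent.

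Pde4d, a phosphodiesterase that degrades cyclic AMP, lies on chr13:108449948-109953461 on the plus strand. Its 19 kept peaks in replicate 1 were all shared, and replicate 2 had 29, which is 1.90 per 100 kb. The ratio of 1.53 was below the 2.24 of the whole lists, and in replicate 2 its density was higher than that of only 41.5% of genes. Promoter peaks in both replicates stood at 6 of its 15 clusters of start sites, spread through the gene. The intronic peak printed above had the highest signal of the gene, 3.18 and 4.44.

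Asic2 encodes a subunit of proton-gated sodium channels and lies on chr11:80880169-81968457 on the minus strand. All its 13 peaks in replicate 1 were kept and shared, against 54 kept in replicate 2, or 1.17 and 4.87 per 100 kb. Both clusters of start sites had a promoter peak in each replicate, and 8 of the 13 peaks lay in introns. The CTCF site printed above is 355 kb from the nearest Asic2 start site, with signals of 1.41 and 3.28.

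Myo1d encodes an unconventional myosin motor and lies on chr11:80482126-80780025 on the minus strand. It had 6 kept peaks in replicate 1, of which 5 were shared, and 25 in replicate 2, or 1.89 and 7.86 per 100 kb. Of the 5, 2 were at its single cluster of start sites, and the strongest intronic peak at chr11:80603141-80603400 had signals of 2.03 and 3.09.

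**Figure D1:**
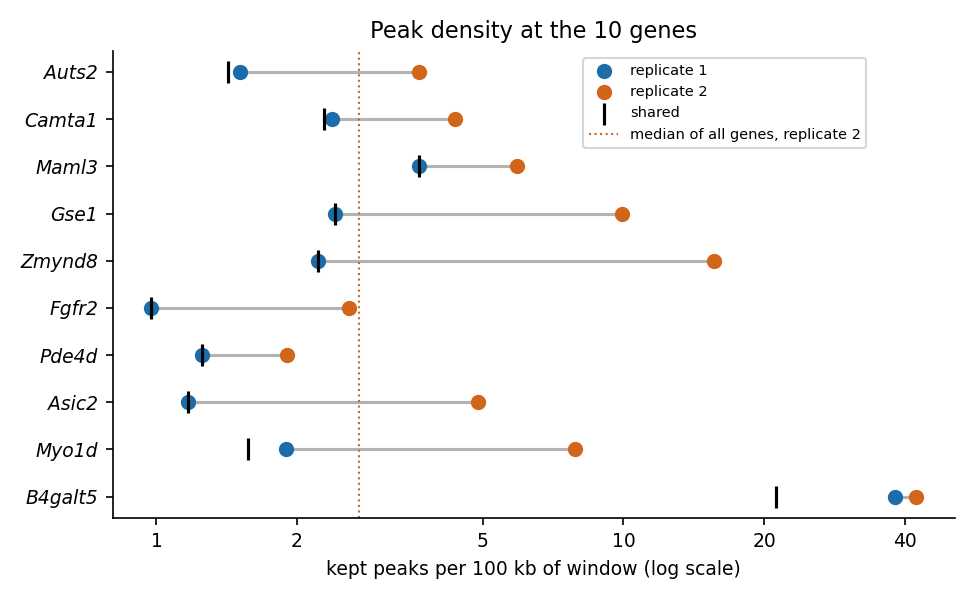
Kept peaks per 100 kb of window on a log axis for each gene, with replicate 1 in blue, replicate 2 in orange, shared peaks as black ticks and the median of all genes in replicate 2 as a dotted line. Replicate 2 lies to the right for every gene, from 1.90 at Pde4d to 42.4 at B4galt5, and the distance between the replicates is largest at Zmynd8.

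B4galt5, a galactosyltransferase that makes lactosylceramide, differed from the rest. It lies on chr2:167298444-167349183 on the minus strand and had 27 peaks in replicate 1 and 30 in replicate 2, with 15 shared, or 38.2, 42.4 and 21.2 per 100 kb. The density of shared peaks exceeded that of 99.9% of all genes. Yet 26 of the 27 peaks of replicate 1 and 25 of the 30 of replicate 2 lay within 20 kb around the 3′ end, chr2:167288444-167308443. Their signals ran from 0.177 to 0.742 in replicate 1, with a median of 0.247, and from 0.146 to 1.44 in replicate 2, with a median of 0.194. The 5th percentile of all peaks was 0.613 and 0.447, and 24 and 19 of the gene's peaks fell below it. Only the promoter peak, with signals of 1.97 and 3.98, stood outside this run in replicate 1. Of 136267 tiles of 20 kb, 5 in replicate 1 and 2 in replicate 2 held 10 or more such low peaks, and this run accounted for 2 and 1 of them. Soft-masked repeats cover 31.6% of the run; their part in the result was not tested. Without the 5% of peaks with the lowest signal, an alternative chosen after the data were seen, B4galt5 kept 3 shared peaks.

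**Figure D2:**
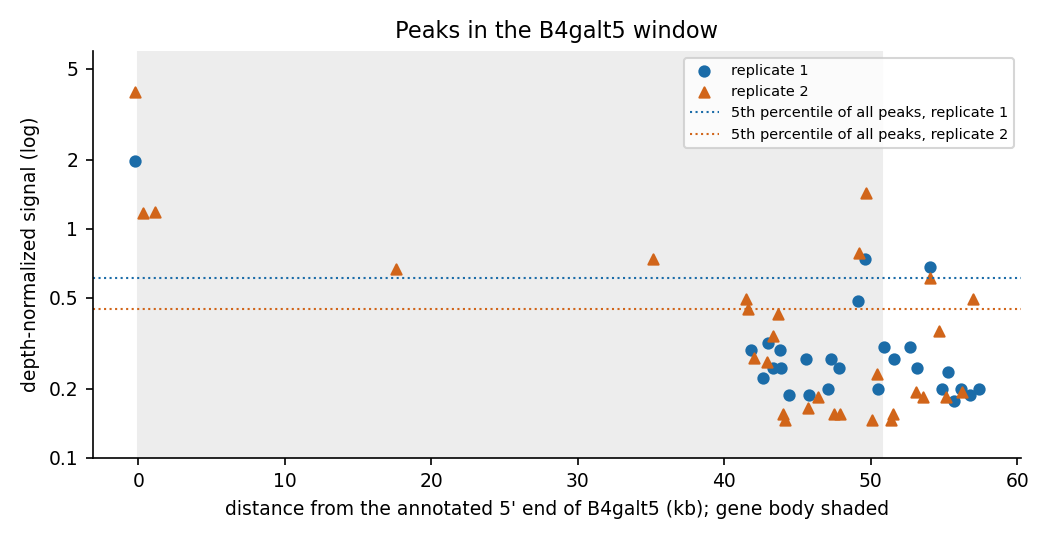
Signal of every peak in the B4galt5 window on a log axis against distance from the 5′ end of the gene in kb, with the gene body shaded, replicate 1 as blue circles and replicate 2 as orange triangles. The dotted lines are the 5th percentiles of each list, 0.613 and 0.447, and the peaks around the 3′ end lie mostly below them.

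Over the 10 genes, the median density was 2.06 per 100 kb in replicate 1 and 5.40 in replicate 2 (mean 3.73 ± 2.36, SD, n = 2). Over all genes these medians were 0 and 2.71. The shared median was 1.9, against a median of 0 and an upper quartile of 2.72 over all genes. Over genes above 100 kb the median was 0.745. The members were chosen on shared peaks, so these values only describe the set. By location, 97 of the 147 shared peaks lay in introns, 31 at own promoters, 10 in own exons and 9 in flanks. Of the intron peaks, 27 were in Fgfr2 by its GENCODE extent, and with the RefSeq extent Fgfr2 kept only 3 shared peaks in all. The distal share, over 1 kb from any TSS, was 74.8% (110 of 147) after the removal of peaks near other genes' start sites, which takes out only non-distal peaks. With no peak removed it was 59.8% (110 of 184), against 42.3% of all shared peaks, from which none were removed either. Of the 110, 27 were in Fgfr2, 16 in Camta1 and 13 in Maml3. Own start sites were the nearest ones for 78 of 147 peaks.

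**Figure D3:**
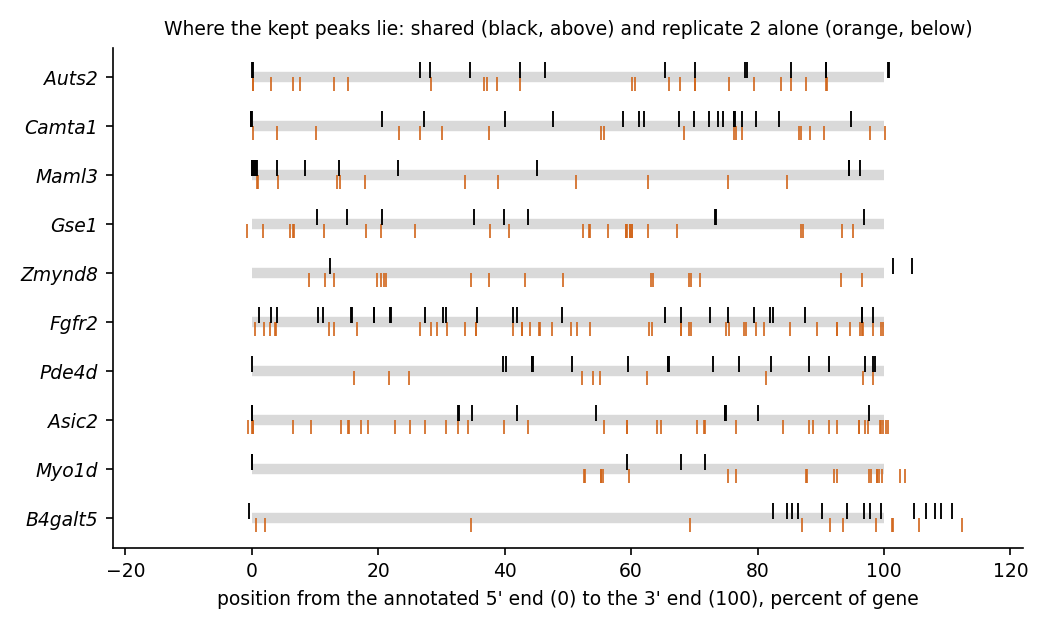
Position of the kept peaks along each gene, from the annotated 5′ end at 0 to the 3′ end at 100 percent; black ticks are shared peaks and orange ticks are peaks of replicate 2 without a partner. Maml3 peaks crowd at the 5′ end and B4galt5 peaks at the 3′ end, and no kept shared peak lies between the 5′ end and 20% of the gene at Camta1, Asic2 and Pde4d.

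**Figure D4:**
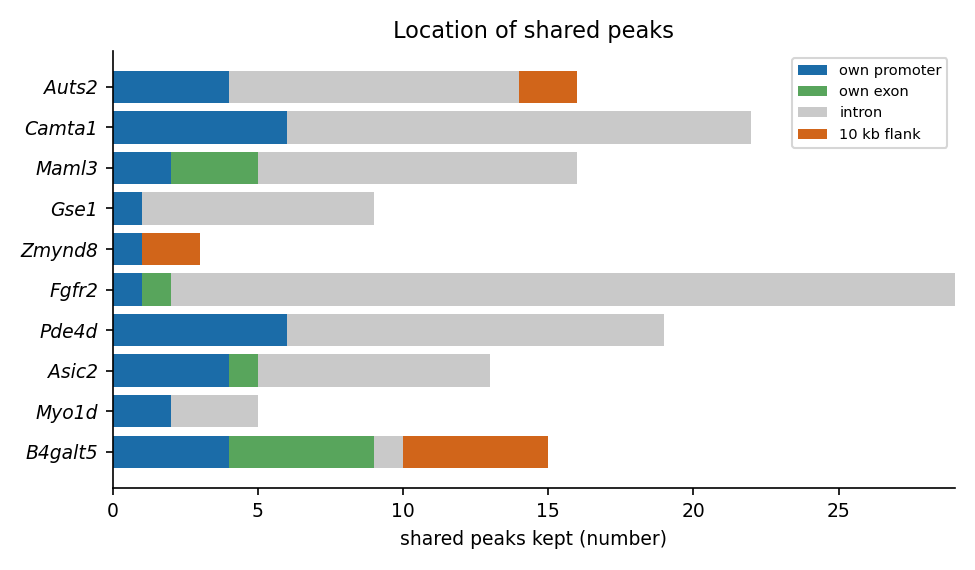
Number of kept shared peaks of each gene by location, as stacked bars. Introns hold most of them at Fgfr2, Camta1 and Pde4d, and exons and flanks hold 10 of the 15 at B4galt5.

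Of the 162 kept peaks of replicate 1, 147 were shared, 90.7% (95% Wilson interval 85.3 to 94.3, counting error only). The share of all replicate 1 peaks was 92.5%, and with no peak removed the members had 184 of 205, 89.8%. With the replicate 2 list shortened to the length of the replicate 1 list, 114 of the members' peaks were shared, 70.4%. Without B4galt5, at full list lengths, it was 132 of 135, 97.8%. Of the 15 kept replicate 1 peaks without a partner, 12 were at B4galt5. The members were chosen on shared peaks, so nothing is read from these shares beside that of all peaks. Signal at the 147 peaks was higher in replicate 2 at 139, with a median log2 ratio of 0.70, and the same median over all shared peaks was 0.69. At distal peaks the median ratio was 0.698, against 0.606 over all shared distal peaks. The median signal was 1.12 and 1.83 at the kept peaks and 1.13 and 1.91 with no peak removed, against 1.41 and 2.29 over all shared peaks; at distal peaks it was 1.10 and 1.84, against 1.15 and 1.84. The 8 peaks that were not higher in replicate 2 comprised 7 at B4galt5 and 1 at Pde4d. Replicate 2 had 234 kept peaks with no partner, of which 89.7% were distal and 34.2% met a peak in the longer replicate 1 list. With no peak removed there were 263, of which 79.8% were distal and 35.4% met such a peak, beside 73.6% and 42.8% of all 39458 peaks of replicate 2 without a partner.

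**Figure D5:**
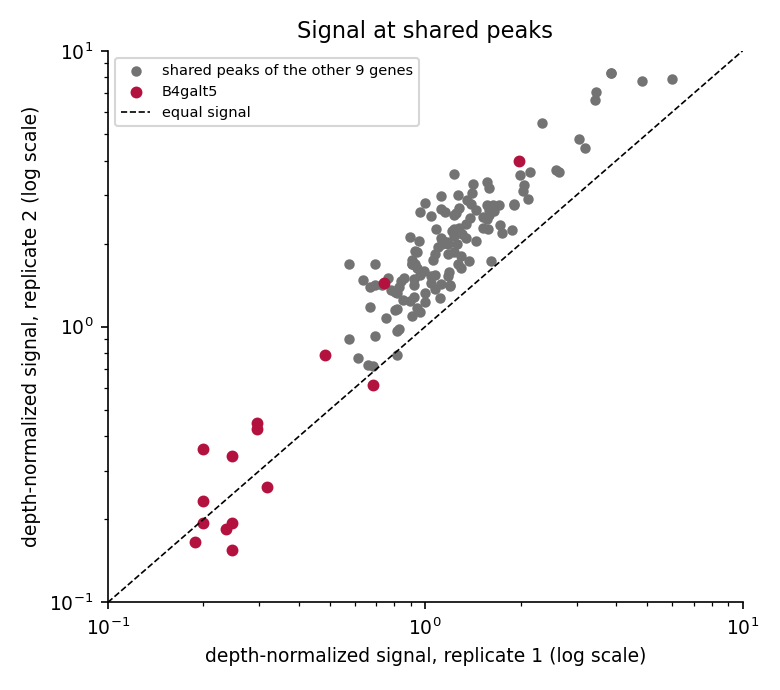
Depth-normalized signal at the 147 shared peaks in replicate 1 and replicate 2, on log axes, with the dashed line marking equal signal and B4galt5 in red. All other genes lie on or above the line except for 1 Pde4d peak, while the B4galt5 peaks lie mostly at low signal, apart from its promoter peak at 1.97 and 3.98 and an exon peak at 0.742 and 1.44.

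Footprints were called in both replicates at 88 of 110 shared distal peaks, 80.0% (71.6 to 86.4), beside 85.6% of all shared distal peaks. Without B4galt5 this was 86 of 99, 86.9%, and at B4galt5 it was 2 of 11. With the RefSeq gene extents the share was 79.5%. Motif letters were searched on both strands in the central 200 bp of each shared distal peak, and no motif's letters are contained in another's. A CTCF motif match was present in 16 of 110 member peaks, 14.5%, against 17.6% of all 11610, and the 16 belonged to Asic2, Camta1, Fgfr2, Gse1, Pde4d and Zmynd8. In all 16, a match overlapped a footprint in both replicates, beside 92.5% of the 2040 peaks with a match over all shared distal peaks. The AP-1 letters TGANTCA were in 12 of 110 peaks, 10.9% against 9.36%, and overlapped a footprint in both replicates in 2 of the 12, beside 11.4% of all peaks with a match. The E-box letters CAGATG, bound by NEUROD factors, were in 23, 20.9% against 23.0%, and in footprints of both in 4 of them, beside 24.4% of all with a match. The E-box letters CAGCTG were in 24, 21.8% against 17.8%, with 3 in footprints of both, beside 15.6%. The SP/KLF letters GGGCGG were in 15, 13.6% against 11.9%, with 7 in footprints of both, beside 36.0%. No peak had a match to NRF1 (GCGCATGCG), NFI (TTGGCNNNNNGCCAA), RFX (GTTGCCNNGGCAAC) or MEF2 in that central window. The CTCF and AP-1 matches counted for Fgfr2 all lay outside its RefSeq extent. A match is a description of the letters, not of a bound protein. Median GC content was 53.5% against 52.5%.

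The genes related to the members by sequence or function were counted from lists. Of 30 paralogs, 21 had a kept shared peak and 16 a promoter peak in both replicates; Pde4a, a cyclic AMP phosphodiesterase, had the most with 8, and Asic4 and Pde4b had 4 each. In the Polycomb complex that AUTS2 joins, 7 of 10 had a kept shared peak and 9 of 10 an open promoter, and Rybp led with 4. Of 9 LSD1 and CoREST genes, 6 and 8 did, led by Phf21a with 4. Among 16 Notch pathway genes, partners of Maml3, 13 had a kept shared peak and 8 an open promoter; the target gene Hes1 led with 6. Of 18 FGF ligands, 9 and 5 did, with Fgf1 at 4, and Fgf16, Fgf21 and Fgf4 had no kept peak in either replicate. Of 15 cyclic AMP signalling genes, 14 and 12 did, with the adenylate cyclase Adcy8 at 8. These counts are to be read beside the 49.2% and 50.8% of all genes, which were not matched to the lists for gene span. The median number of kept shared peaks was 0 over all genes and 2 over genes above 100 kb.

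The gene most like each member in span and peak counts was found among genes outside the set by the smallest distance in log2(count + 1) over the 4 peak lists. The nearest were Cdh13 for Camta1, Mtus2 for Maml3, Sfi1 for B4galt5, Shank2 for Gse1, Tiam1 for Myo1d and Nrxn2 for Zmynd8. No gene of like span was found for Fgfr2. Among genes of like span, no other had as many kept shared peaks as Auts2, Camta1, Asic2, Maml3, Pde4d, B4galt5 or Gse1, which were chosen for that, whereas 54 had at least as many as Myo1d and 257 at least as many as Zmynd8.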

How the data were processed

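Per the labels, DNase-seq was run on frontal cortex of 1 group of 2 biological replicates. The 2 peak lists, the footprint list and the cleavage-rate table of each replicate were deposited on mm10; names and versions of the aligner and callers: not given in the sources used here. Peak signal values deposited by the authors are read-depth normalized densities. The p-value column deposited by the authors is an FDR ending at 0.05 in the cleavage tables, and 0.01 in every row of the footprint lists. Library totals were not analysed here.

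The shorter of the 2 peak lists of each replicate was the main list and the longer one an alternative. Peaks were assigned to windows of the gene body and 10 kb on each side, kept when over 1 kb from start sites of other genes, and shared at an overlap of 1 bp; densities are per 100 kb. Start sites within 1 kb of each other form a cluster. Shares have 95% Wilson intervals that cover counting error only, and the code was tested on simulated data. Python 3.11.15, pandas 2.3.3, numpy 2.4.6 and scipy 1.17.1 were used. Alternatives were other windows, overlaps, TSS filters, peak lists, signal limits and gene models, and leaving out each replicate. Named genes were the members, up to 3 genes with the most kept shared peaks and up to 3 with no kept peak per list, the 5 other genes with the most shared peaks (Trim7 and Upp2, tied with the last, were added after their values were seen), and the genes nearest in peak counts with a similar span; for Auts2, Asic2 and Pde4d the last is not reported here. Members and lists were chosen with earlier results of these data known. No test was made, because there is 1 group and the members were selected on the readout.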

Additional observations from a re-analysis of the deposited data

How the results depend on the processing

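The 147 shared peaks became 263 with the longer list and 43 with the 50% of peaks with the highest signal, which also left 5 genes with an own promoter peak in both replicates. Under these the median shared density of 1.9 per 100 kb became 3.25 and 0.542. Leaving out 1 replicate in turn gave 162 to 382 peaks and a median density of 2.06 to 5.4 per 100 kb, counting all kept peaks of the other. For footprints, the same 110 shared distal peaks were used and a footprint in 1 replicate was enough. That share was 84.5% for replicate 1 and 88.2% for replicate 2, beside 88.3% and 94.3% of all shared distal peaks. By its definition it cannot fall below the share for both replicates. The footprint share of 80.0% was 62.3% with the longer list, 82.7% at an overlap of 50% of the shorter peak, 96.8% for the highest-signal 50%, 88.2% with the replicate 2 list shortened to equal length and 88.9% without the 5% of peaks with the lowest signal. With equal list lengths, the shared peaks numbered 114, the shared share of replicate 1 peaks was 70.4% and the median log2 ratio was 0.79. The RefSeq extents, the merging of overlapping peaks and the removal of the lowest 5% were chosen after seeing the data. The cause of these changes was not tested. Of the values for single genes, 192 stayed within the set tolerance and 68 moved. No paired analysis was possible because there is 1 group. The number of replicates and the unequal list lengths limit what can be said of density.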
